A study of Homo sapiens with 4 samples.

Results

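The olfactory receptor gene clusters are stretches of the genome where genes for odorant receptors lie side by side. The clusters described here are 12 intervals of hg19 on chromosomes 1, 7, 9, 11, 12, 14 and 17, taken by position alone, with a summed length of 11.6 Mb. They overlapped 1570 of the 326674 peaks of list 1 and 1301 of the 264919 peaks of list 2 on chromosomes 1 to 22 and X. The study profiled H3K9me3 by chromatin immunoprecipitation and sequencing in formaldehyde cross-linked U2OS cells, an established human osteosarcoma line, with 2 input samples that had no antibody and 2 samples precipitated with an Abcam antibody against H3K9me3. All 4 samples carry the name KRAB-IDR3-TCF3, which the labels leave unexplained, and nothing in the labels says whether samples of a group were separate cultures. List 1 is named in the labels of the inputs and list 2 in those of the precipitated samples, although the peak names of both speak of immunoprecipitation. Each list is therefore treated as 1 set of values that belongs to no group, without replicate error, with unknown depth and without a test between conditions.

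Olfactory receptors are G protein-coupled receptors of sensory neurons in the nasal epithelium, where a neuron expresses a single allele of a single receptor gene. Class I receptors are the group first described in fish, and class II receptors form most of the mammalian repertoire. In sensory neurons and their precursors, H3K9me3 and heterochromatin protein HP1 are known to mark the silent receptor genes. U2OS cells come from bone and not from the olfactory lineage.

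In the RefSeq gene table for GRCh38.p14, used for names and gene order only, the runs of neighbouring receptor symbols around 1 anchor gene per cluster held 276 of the 392 coding receptor genes and 248 receptor pseudogenes. The run around OR51E2 at 11p15 held 55 coding genes, all of class I, and no class I gene lay in the other runs. OR51E2 itself is a class I receptor known for expression in prostate. The run around OR5I1 at 11q11 held 57 coding genes and 91 pseudogenes, and it went on across the centromere to OR4B1. The 9q33 run held 14 coding genes, 13 of them of family OR1, and the 17p13 run held 11, of which 8 were of family OR1. The largest run outside chromosome 11 was 1q44, with 43 coding genes, 33 of them of family OR2.

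The promoters of 3 genes are printed because they belong to the clusters whose peak coverage stands out: 9q33 and 17p13, which lie in sparsely covered surroundings, and 11q11, the most covered cluster. OR5I1 was named by rule, and OR1J1 and OR1A1 were chosen after the coverage of their clusters had been seen. Each line gives the 250 bases before the annotated start, 5′ to 3′ on the gene's strand, from RefSeq on GRCh38.p14, with CpG dinucleotides in capitals.
OR1J1 (9q33, minus strand): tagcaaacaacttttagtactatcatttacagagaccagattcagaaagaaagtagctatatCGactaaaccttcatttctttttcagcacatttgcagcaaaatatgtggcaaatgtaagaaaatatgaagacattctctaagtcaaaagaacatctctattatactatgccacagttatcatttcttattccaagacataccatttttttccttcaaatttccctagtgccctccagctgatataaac
OR5I1 (11q11, minus strand): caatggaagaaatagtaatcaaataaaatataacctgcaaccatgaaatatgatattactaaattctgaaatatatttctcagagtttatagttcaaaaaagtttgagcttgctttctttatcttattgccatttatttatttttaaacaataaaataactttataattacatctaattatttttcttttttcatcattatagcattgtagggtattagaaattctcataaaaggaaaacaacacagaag
OR1A1 (17p13, plus strand): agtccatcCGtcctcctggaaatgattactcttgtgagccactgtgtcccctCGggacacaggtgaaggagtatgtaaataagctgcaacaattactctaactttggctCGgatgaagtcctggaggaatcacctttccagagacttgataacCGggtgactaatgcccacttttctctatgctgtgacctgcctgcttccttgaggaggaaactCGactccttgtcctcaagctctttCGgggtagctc

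The OR5I1 promoter had a GC content of 22.8% and no CpG, that of OR1J1 32.8% and 1 CpG, and that of OR1A1 49.6% and 6 CpG. Promoters were found for 224 receptor genes of the runs, with a median GC content of 36.4% (quartiles 32.0% and 41.6%), against a median of 62.8% over 15526 other protein-coding genes. The median number of CpG was 1 against 18, and the observed over expected CpG ratio was 0.135 against 0.744. No CpG occurred in 66 of the 224 (29.5%) and in 402 of the 15526 (2.59%). The 17p13 promoters had the highest median GC content of the 12 runs, 42%, and all 9 held a CpG, while 22 of the 51 of the 11q11 run held none. The runs need not match the hg19 intervals whose coverage is given below, and that of 11q11 extends past its interval. Class I promoters at 11p15 had a median GC content of 40% (39 promoters) and class II promoters 36% (185 promoters). For 44.2% of the receptor genes the table's start was the ATG start codon itself, against 2.6% of other coding genes, so many of these windows lie directly before the coding sequence and not before a mapped transcription start.

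Peaks covered 5.80 Mb of the 11.6 Mb in list 1 (50%) and 2.96 Mb in list 2 (25.5%). The flanks are the 2 Mb on either side, without other clusters and without stretches of at least 1 Mb that hold no peak in either list, and sum to 40.8 Mb. They were covered to 38.8% in list 1 and 19.9% in list 2, so that the clusters stood at 1.29 times their flanks in both lists. The rest of the genome, also taken without such peak-free stretches, was covered to 48.1% and 27%. Pooled over their length, the clusters were thus denser than their pooled flanks and close to the genome at large. Clusters and flanks do not carry the same weights in this pool. The sparse flanks of 9q33 and 17p13 enter with 4 Mb each, beside clusters of 0.4 and 0.5 Mb. The densely covered 11q11 enters with 1.7 Mb of cluster and 1.28 Mb of flank. The median of the 12 single ratios was 1.04 in list 1 and 0.938 in list 2. With list 1 limited to peaks that reach the smallest −log10 p of list 2, its pooled ratio was 1.01. The pooled value also rested on few clusters. With 9q33, 17p13 and 11q11 left out, a choice made after seeing the data, it came to 1.03 in list 1 and 0.906 in list 2.

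The clusters differed widely among themselves. Their covered share in list 1 ran from 32.3% at 12q13 to 72.1% at 11q11, with a median of 49.5%. In list 2 it ran from 8.80% at 11q24 to 46.9% at 11q11, with a median of 23%. The median window of 1 Mb along the genome was covered to 48.4% and 24.1%, so the middle of the clusters lay at the level of an ordinary window. The highest cluster stood 2.23 times above the lowest in list 1 and 5.33 times in list 2, and the flanks spanned 3.96 and 5.84 times. Across the 12 clusters the shares of both lists ranked alike (Spearman's rho 0.818, n = 12), as did the ratios to the flanks (rho 0.874, n = 12). Points of both lists share their genome positions. Between the share of a cluster and that of its flanks, rho was 0.168 in list 1 and 0.224 in list 2 over the same 12 points. Both values are lowered by 9q33 and 17p13, which pair high shares with the sparsest flanks (33.2% beside 6.59% and 30.9% beside 5.65% in list 2). No rho was computed without them, so a relation among the other clusters is not excluded. In list 2, 11q11 had the highest share and the densest flanks (46.9% and 33%). Both were low at 11q24 (8.80% and 17.7%) and 12q13 (9.15% and 13.9%), whereas 14q11 had 20.5% beside 13.7%.

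**Figure D1:**
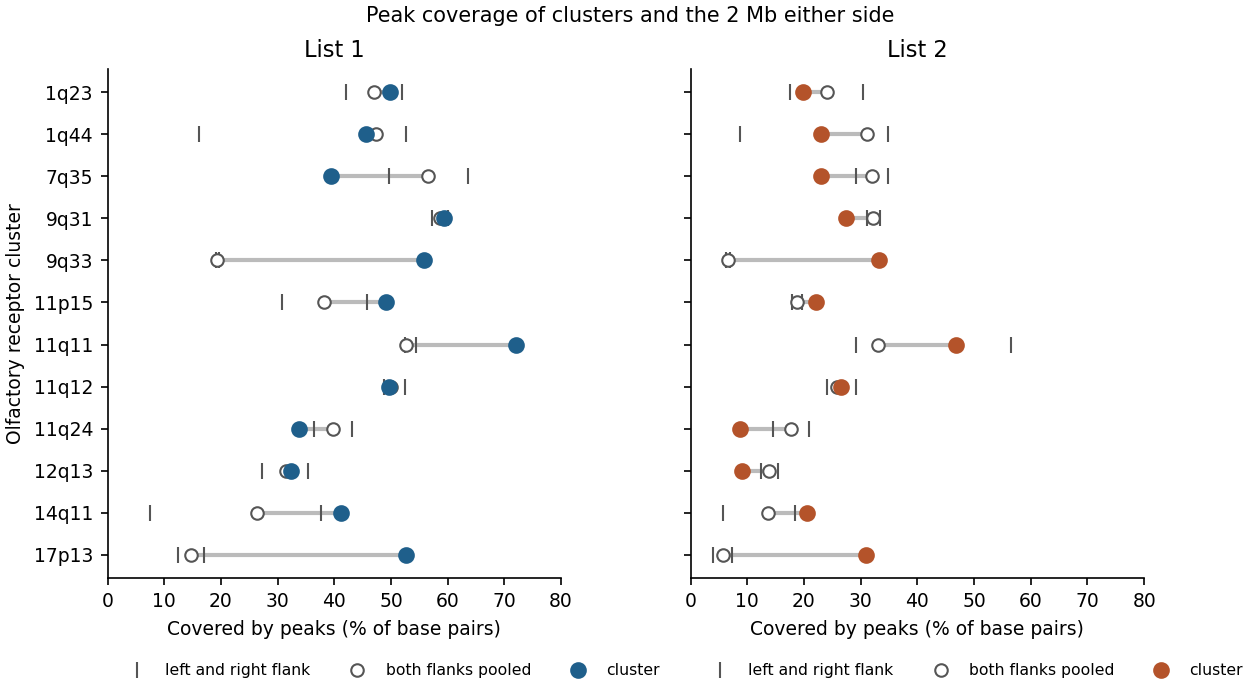
Share of base pairs covered by peaks (horizontal axis, %) in each of the 12 clusters (filled circles), in both flanks pooled (open circles) and in the left and right flank (ticks), for list 1 and list 2. The wide gaps are those of 9q33 and 17p13, where the clusters stand at 55.8% and 52.6% in list 1 and their flanks at 19.3% and 14.8%.

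A cluster was called higher or lower when its covered share was at least 1.5 times that of its flanks or at most 1/1.5 of it. In list 1, 3 of 12 clusters were called higher (9q33, 14q11 and 17p13) and 0 lower, with no test behind this or any count here. The call of 14q11 was lost with flanks of 5 Mb (1.36), with bounds moved out by 100 kb (1.22) and with list 1 limited to the −log10 p range of list 2 (1.28). Of 2804 windows of 1 Mb measured in the same way, 6.06% were higher and 12.1% lower. In list 2, 2 of 12 clusters were higher (9q33 and 17p13) and 2 lower (11q24 and 12q13), beside 13% and 20.5% of the windows. With list 1 limited to peaks at or above the smallest −log10 p of list 2, 5 clusters were lower in it (11q24, 12q13, 1q44 at 0.436, 7q35 at 0.573 and 1q23 at 0.593) and 2 higher (9q33 at 2.77 and 17p13 at 4.1). Under that limit 28.8% of the windows were lower and 18.4% higher. By sign alone, 8 of 12 clusters lay above their flanks in list 1 and 6 of 12 in list 2, beside 50.9% and 47.9% of windows that did. Above their flanks in both lists were 9q33, 11p15, 11q11, 14q11 and 17p13, and below in both were 1q44, 7q35 and 11q24. Of these, 11p15 was below its flanks in list 1 under the limit on −log10 p (0.893), and 1q44 above them in list 1 with flanks of 1 Mb (1.12). How often windows of the genome lie on the same side in both lists was not computed, so this listing has no background beside it.

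**Figure D2:**
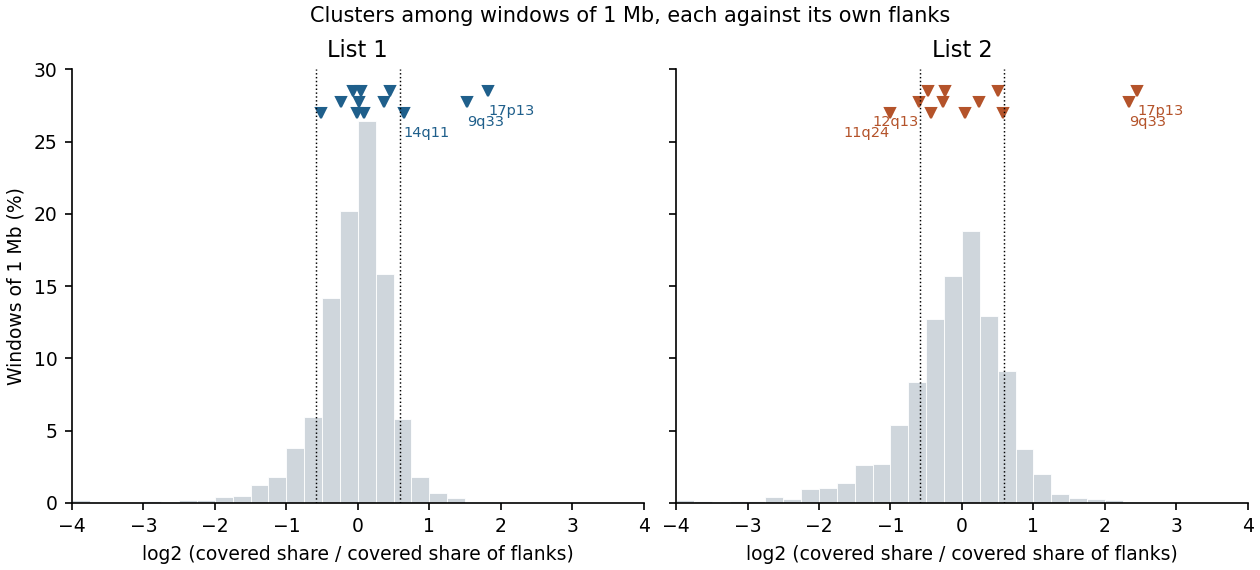
Distribution of the log2 ratio of covered share to flanks over 2804 windows of 1 Mb (grey bars, % of windows), with the 12 clusters as triangles, whose height carries no value, and the 1.5-fold limits as dotted lines. Most clusters sit within the bulk of windows, and 9q33 and 17p13 lie far to the right in both lists, at ratios of 2.89 and 3.55 in list 1 and 5.04 and 5.47 in list 2.

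The 9q33 cluster (chr9:125200001-125600000, 0.4 Mb) was an island of peaks in a sparse region. It was covered to 55.8% in list 1 and 33.2% in list 2, and its flanks to 19.3% and 6.59%. Both sides were alike, with 19.6% to the left and 19.1% to the right in list 1, and 6.31% and 6.87% in list 2. Peaks were both more frequent and wider within the cluster. Their density was 130.0 per Mb against 92.0 in the flanks of list 1 (1.41 times) and 120.0 against 41.0 in list 2 (2.93 times). The median peak width was 2699 bp against 1262 bp (2.14 times) and 2034 bp against 1108 bp (1.84 times). Fold enrichment, the authors' value for each peak, had a median of 1.66 in the cluster and 1.58 in the flanks of list 1, and of 2.2 and 2.08 in list 2. All 4 bins of 100 kb lay above the flanks in both lists, between 41.6% and 74.8% in list 1 and between 20.6% and 48.8% in list 2.

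With both sides joined, coverage was lower within a short distance outside the bounds of 9q33. It was 66.4% at 100 to 200 kb inside the bounds in list 1 and 45.2% in the last 100 kb, then 16.4% in the first 100 kb outside and 3.72% in the next. In list 2 the same steps were 41.0%, 25.4%, 7.34% and 2.60%. The sides differed in bins of 50 kb. At the left bound, coverage was 35% inside and 33.7% outside in list 1, and 17.7% and 21.1% in list 2. At the right bound it was 21.7% inside and 5.27% outside in list 1, and 17% and 0.914% in list 2.

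The 17p13 cluster (chr17:2900001-3400000, 0.5 Mb), which holds OR1A1, showed the same pattern. It was covered to 52.6% in list 1 and 30.9% in list 2, against 14.8% and 5.65% in its flanks, the sparsest flanks of the 12 clusters in both lists. The left flank was covered to 12.5% and the right to 17.1% in list 1, and to 3.92% and 7.39% in list 2. Peak density was 124.0 per Mb against 74.0 (1.68 times) in list 1 and 118.0 against 28.5 (4.14 times) in list 2. Median widths were 2190 bp against 1196 bp (1.83 times) and 2046 bp against 1174 bp (1.74 times). All 5 bins of 100 kb lay above the flanks in both lists, and the lowest held 26.6% in list 1 and 7.73% in list 2. Outside the bounds, with both sides joined, the coverage passed from 42.3% in the last 100 kb within to 30% and then 7.75% in list 1. In list 2 it passed from 21.3% to 12.8% and 1.36%. Here too the sides differed in bins of 50 kb. At the left bound, coverage was 25.5% inside and 0% outside in list 1, and 9.79% and 0% in list 2. At the right bound it was 57.5% inside and 61.7% outside in list 1, and 25.9% and 35.8% in list 2.

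**Figure D3:**
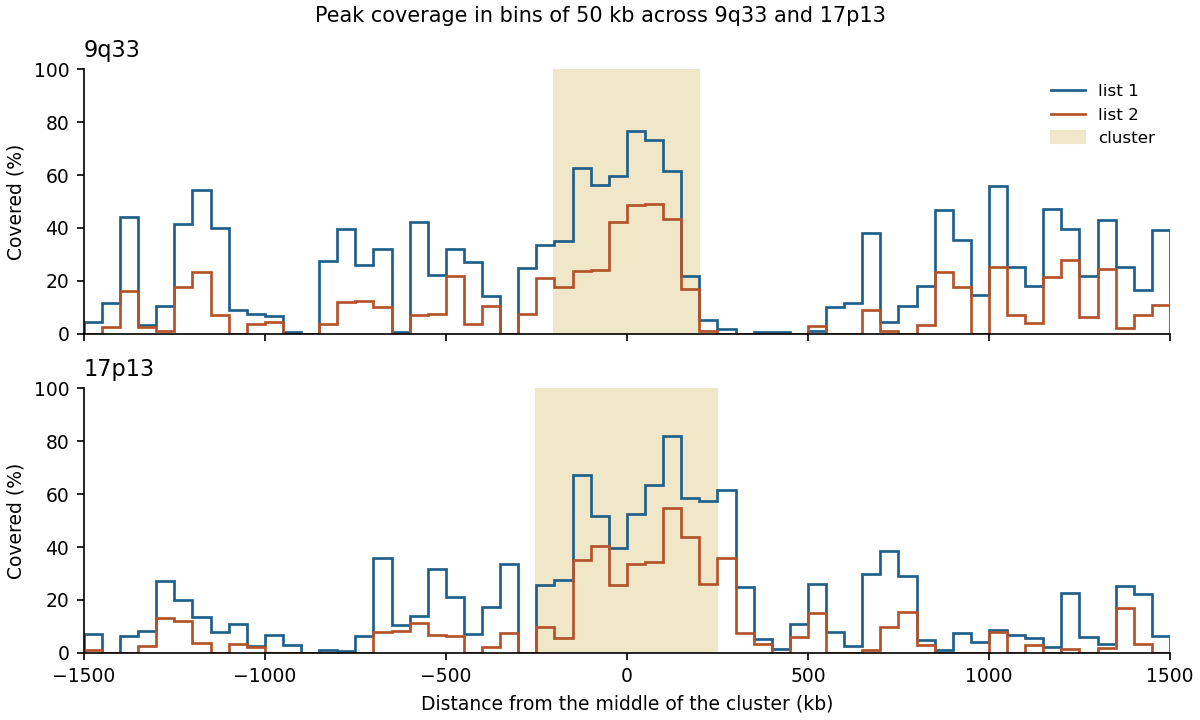
Share of base pairs covered by peaks (vertical axis, %) in bins of 50 kb around the middle of 9q33 and of 17p13 (horizontal axis, kb), with the cluster shaded and list 1 and list 2 as lines. Within the shaded stretches both lists stand above surroundings that average 19.3% and 14.8% in list 1.

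Windows with such ratios were few, also among those with sparse flanks. Among 5638 windows of 0.5 Mb, a size near that of both clusters, 15 (0.266%) in list 1 and 7 (0.124%) in list 2 had a ratio of at least that of 9q33. At least the ratio of 17p13 was reached by 8 (0.142%) and 6 (0.106%). Windows with flanks under 20% covered in list 1 numbered 278, of which 46 (16.5%) stood at 1.5 times their flanks or more and 10 (3.6%) at the ratio of 9q33 or more. With flanks under 10% in list 2 there were 420, of which 92 (21.9%) and 6 (1.43%) did so. These windows include those over the clusters themselves, and the limits of 20% and 10% were chosen after seeing the data. The flank's own level enters the ratio as its denominator, and over the 12 clusters the ratio and the flank share had a rho of −0.678 in list 1 and −0.357 in list 2.

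The 11q11 cluster (chr11:54900001-56600000, 1.7 Mb), which runs from beside the centromere through the OR4, OR5 and OR8 genes, was the most covered. Peaks took up 72.1% of it in list 1 and 46.9% in list 2, above 88.3% and 87.6% of the windows of 1 Mb. Its flanks stood at 52.7% and 33%, which gave ratios of 1.37 and 1.42. Only 1.28 Mb of flank could be used, with 0.18 Mb on the centromere side, since a long stretch without peaks and the 11q12 cluster were taken out. On the centromere side the flank of list 2 stood at 56.5%, above the cluster, and on the other side at 29.2%. When peak-free stretches and other clusters stayed in the flanks, the ratios became 2.39 and 2.54.

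Within 11q11 the bins of 100 kb lay between 37.7% and 93.6% in list 1 and between 22.2% and 89.0% in list 2. Above the flanks lay 16 of 17 bins in list 1 and 14 of 17 in list 2. The highest bin was the one nearest the centromere in both lists, and the bin next to it was the lowest. This first bin held the widest peak of all clusters, chr11:54907619-54995246 (87.6 kb, fold 2.06) in list 1 and chr11:54939515-54988045 (48.5 kb, fold 2.39) in list 2. The median peak width of 11q11 was the highest of the 12 clusters in both lists, 3423 bp and 2148 bp, against 2189 bp and 1566 bp in its flanks. Its peak density in list 1, 107.6 per Mb, was close to the 109.4 of the flanks, so that in this list its higher coverage came with wider peaks and not with more of them. In list 2 it had 141.2 against 92.2 peaks per Mb.

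Class I genes lie in the 11p15 cluster (chr11:4300001-6300000, 2.0 Mb). It was covered to 49.2% in list 1 and 22.1% in list 2, with flanks at 38.2% and 18.8% and ratios of 1.29 and 1.18. Above the flanks lay 17 of 20 bins in list 1 and 11 of 20 in list 2. The first bin, 4300001 to 4400000, was the lowest at 10.5% and 3.22%, and the bin from 4500001 to 4600000 the highest at 77.5% and 40.9%. The beta-globin genes, which code for the beta-type chains of haemoglobin and are known to sit among the class I receptors, occupy about 90 kb here. Their stretch, chr11:5230001-5320000, was covered to 46.8% in list 1 and 15.7% in list 2, and the part of the cluster outside the globin and TRIM stretches to 50.3% and 22.8%. The stretch from TRIM6 to TRIM22, genes of the tripartite motif family that act in antiviral defence, stood at 34.2% and 16.1% (chr11:5617001-5732000).

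Other non-receptor genes lie within 11q12 and 1q23. At 11q12 (chr11:57700001-59400000, 1.7 Mb), the cluster was covered to 49.7% in list 1 and 26.6% in list 2, at 0.994 and 1.03 times its flanks. Its stretch from LPXN to GLYAT (chr11:58294001-58500000) was covered to 30.7% and 12.2%, and the rest to 52.4% and 28.6%. LPXN codes for the adaptor leupaxin and GLYAT for an acyltransferase that conjugates glycine. Which other genes lie in the stretch, or in the rest, was not looked up on hg19. That stretch holds the lowest bin of 11q12, 58300001 to 58400000, with 6.24% and 1.86%. It also holds the longest peak-free run of the cluster, 57.3 kb in list 1 and 75 kb in list 2. The next bin of the stretch, which ends at 58500000, held 52.8% and 22.6%. The rest was uneven as well, with 78.6% and 58.4% in the cluster's first bin and 17.8% and 5.37% in its last. The stretch was thus not the only sparse part of the cluster. The 1q23 cluster (chr1:158300001-159400000, 1.1 Mb) was covered to 49.8% and 19.9%, at 1.06 and 0.831 times its flanks. The stretch from MNDA to AIM2 (chr1:158801001-159047000), interferon-inducible genes that include DNA sensors, stood at 43.3% and 18.7%, and the rest of 1q23 at 51.7% and 20.3%.

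**Figure D4:**
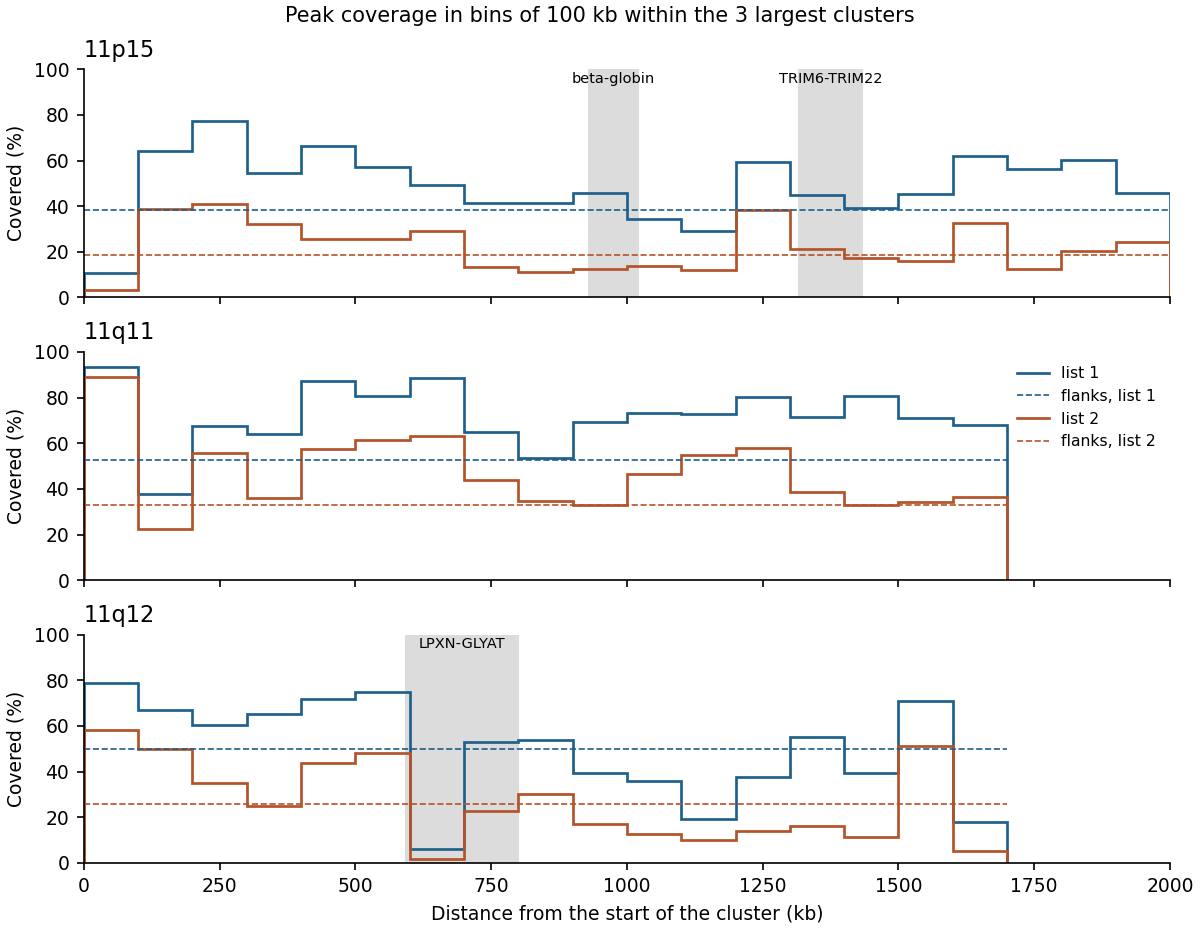
Share of base pairs covered by peaks (vertical axis, %) in bins of 100 kb along 11p15, 11q11 and 11q12, by distance from the start of the cluster (horizontal axis, kb). Lines are list 1 and list 2, dashed lines the flanks of each list and shaded stretches the embedded non-receptor genes. Nearly all bins of 11q11 lie above its flanks, and the lowest bin of 11q12 (6.24% in list 1) falls within its shaded stretch.

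The least covered clusters were 11q24 and 12q13. The 11q24 cluster (chr11:123600001-124500000, 0.9 Mb), where 11 of the 22 coding receptor genes of the run belong to family OR8, was covered to 33.7% in list 1 and 8.80% in list 2. Its flanks stood at 39.8% and 17.7%, for ratios of 0.846 and 0.498, the lowest ratio of list 2. Above the flanks lay 2 of its 9 bins in list 1 and 0 in list 2. It had the highest peak density of all clusters in list 1, 163.3 per Mb against 115.0 in its flanks, and the narrowest peaks, with a median width of 1311 bp against 1808 bp. In list 2 the density was 74.4 against 84.5 per Mb and the median width 786 bp against 1422 bp. Peaks in list 1 were therefore many and small at 11q24. Of their covered length 17.9% was also covered in list 2, the lowest share of the 12 clusters. This share is limited by list 2, which covered 8.80% of the cluster.

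The 12q13 cluster (chr12:55500001-56000000, 0.5 Mb) is home of the OR6C genes. It was covered to 32.3% in list 1 and 9.15% in list 2, at 1.03 and 0.657 times its flanks. Its peaks numbered 156.0 per Mb in list 1 against 108.2 in the flanks, but 62.0 against 60.2 in list 2. The median width was 1655 bp against 1481 bp in the flanks of list 1, unlike at 11q24, and 887 bp against 1338 bp in list 2. The call in list 2 was lost with flanks of 1 Mb (0.692) and with bounds moved out by 100 kb (0.972). In list 2 a stretch of 123.9 kb held no peak, whereas the longest in list 1 was 21 kb. Of the length covered in list 1, 21.3% was covered in list 2 as well, a share limited by the 9.15% of the cluster that list 2 covered. Median folds in list 1 were lowest at 11q24 (1.54) and 12q13 (1.55), near the lowest fold of the whole list, 1.44. When list 1 was limited to peaks that reached the lowest −log10 p of list 2, the ratio of 11q24 in list 1 was 0.0343 in place of 0.846 and that of 12q13 was 0.148 in place of 1.03.

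The 14q11 cluster (chr14:20200001-20800000, 0.6 Mb), with OR4 and OR11 genes, was covered to 41.2% in list 1 and 20.5% in list 2, at 1.56 and 1.49 times its flanks. Its sides were unequal. The left flank, 1.2 Mb towards the centromere, stood at 7.43% and 5.68%, and the right flank at 37.7% and 18.5%, not far below the cluster. The widest peak of the cluster was at almost the same place in both lists, chr14:20355425-20375919 (20.5 kb) and chr14:20354909-20373364 (18.5 kb), and it was also the peak of highest fold there, at 2.84 in list 2.

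The remaining clusters lay at or below their surroundings. The 7q35 cluster (chr7:143400001-144000000, 0.6 Mb) was covered to 39.5% in list 1 and 23% in list 2, with flanks at 56.6% and 32.0% and ratios of 0.698, the lowest of list 1, and 0.718. A run of 105.4 kb without a peak was present in both lists (143438825 to 143544211 in list 1). With it left out of the cluster the ratios were 0.846 and 0.871. That step was not planned and can only raise a ratio. At the other extreme, a single peak of 50.3 kb (chr7:143629207-143679515) lay in the same cluster in list 1. The 1q44 cluster (chr1:247550001-248900000, 1.35 Mb), with its OR2 genes, was covered to 45.5% and 23%, at 0.959 and 0.738 times its flanks. Its flanks were mostly the left side (52.6% and 34.9%), since the right side reached the chromosome end after 0.333 Mb (16.2% and 8.66%). The 9q31 cluster (chr9:107250001-107500000, 0.25 Mb), all of whose coding receptor genes are OR13 genes, was covered to 59.4% and 27.4%, at 1.01 and 0.850 times its flanks, which were among the densest.

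Pooled, there were 135.3 peaks per Mb in list 1 and 112.2 in list 2, against 107.6 and 79.7 in the flanks and 115.1 and 93.3 elsewhere. In each list 9 of 12 clusters had a higher peak density than their flanks. How often windows of the genome do so was not computed, so this count has no background beside it. The median width was 2014 bp (quartiles 926.2 and 4636 bp) in list 1 and 1432 bp (669.0 and 2788 bp) in list 2, at 1.08 and 0.990 times the flanks. Peaks of at least 10 kb made up 35% of the covered length in list 1 and 14.3% in list 2, compared with 38.2% and 18.3% in the flanks and 45.3% and 26.9% elsewhere. Pooled, with the unlike weights of clusters and flanks given above, the clusters thus had more peaks per Mb than their flanks at a like median width. This does not hold for each cluster, since peaks at 9q33 and 17p13 were wider than in the flanks in both lists, and so were those at 11q11. Peaks of at least 10 kb took a smaller share of the covered length in the clusters than elsewhere in the genome.

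Folds in the clusters were low, as they were in the flanks. The median fold was 1.64 in list 1 and 2.11 in list 2, the same as in the flanks, and the highest fold in any cluster was 2.92 and 3.15. By comparison, the lists reach down to folds of 1.44 and 1.90, and admit p-values of up to 0.096 and 0.0265. By the q-values in the authors' deposited table, 0 cluster peaks reached a −log10 q of 2, a limit passed by 0.0421% of peaks elsewhere in list 1 and 0.255% in list 2. At a q of at most 0.05 the authors' deposited table gave 0 of 1570 cluster peaks in list 1, against 0.0911% in the flanks and 0.191% elsewhere. In list 2 the authors' deposited table gave 12 of 1301 (0.922%), against 1.57% in the flanks and 2.08% elsewhere. The lowest q in the clusters, again from the authors' deposited table, was 0.0531 in list 1 and 0.0221 in list 2. Of the length covered in the clusters, 43.1% of that of list 1 was covered in list 2 and 84.5% of that of list 2 in list 1, against 44.1% and 86.1% in the flanks and 49.5% and 88.2% elsewhere.

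Coverage over all 12 clusters together was 58.5% in list 1 and 28.9% in list 2 at 400 to 500 kb inside the bounds, a distance that only the larger clusters reach, 43.5% and 23% in the last 100 kb, 39.9% and 22.8% in the first 100 kb outside and 34.5% and 18.3% in the next. Without 9q33 and 17p13, the other 10 clusters showed no step at the bounds, with 43.5% in the last 100 kb inside and 43.2% in the first outside in list 1, and 22.9% and 25.3% in list 2. In bins of 100 kb, 79 of 117 stood above the flanks of their own cluster in list 1, and 56 of 117 did in list 2. Of the bins of 100 kb in all windows of 1 Mb, 52.6% and 46.3% stood above the flanks of their window, so the count of list 2 was near the background. No mappability track of hg19 was used here.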

How the data were processed

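Chromatin immunoprecipitation with sequencing was done in U2OS cells, with 2 input and 2 H3K9me3 samples per the labels. Build hg19, MACS2 2.2.7.1, Bowtie2 2.5.0, Trim Galore 0.6.7 and bcl2fastq 2.17 are named in the submitters' processing notes. Calling limits, control, duplicate handling and pooling are not stated there. The authors deposited 2 broad peak lists, with a fold enrichment (a ratio), a −log10 p, a −log10 q and a score per peak. The deposited score was not used.

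Positions are hg19, 1-based. Covered shares are merged base pairs over interval length, and a peak counts for an interval it overlaps by at least 1 bp. Flanks are 2 Mb a side, without other clusters and without stretches of at least 1 Mb lacking peaks in both lists. The background is all windows of 1 Mb that lie at least 90% outside such stretches and have at least 2 Mb of flank. All values are descriptions, without tests, since the lists have no replicates and no read depth. The interval steps were tested on simulated data. Embedded genes were placed on hg19 from general knowledge of the assembly, so their bounds are approximate. A planned stretch is not reported here. Receptor genes are runs of symbols in a GRCh38.p14 table, with up to 8 other coding genes between, a limit set after seeing that table; gene names could not be matched to hg19 positions. Every cluster is named with its values; those past 1.5 times their flanks in both lists, and the highest and the lowest by covered share, are described in full. The clusters, lists and limits were chosen with earlier results of these data known. Alternatives covered flank width, peak filters, bounds and left-out clusters. Values were computed in Python 3.11.15 with pandas 2.3.3 and numpy 2.4.6, with rank correlations from scipy 1.17.1 and plots from matplotlib 3.10.9.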

Additional observations from a re-analysis of the deposited data

How the results depend on the processing

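No cluster called higher came out below its flanks, and none called lower came out above them, under the alternatives run. Within 1.5 times of the reported value lay 97 of 110 ratios of single clusters in list 1 and 91 of 100 in list 2. On the other side of 1 from the reported value lay 21 and 8 of them, 3 and 2 lost a call (14q11 in list 1, 12q13 in list 2), and 15 and 18 gained one. The pooled ratio of 1.29 was 1.01 in list 1 under the limit on −log10 p and depended on few clusters. With 1 cluster left out it ranged from 1.19 (without 11q11) to 1.37 (without 7q35) in list 1 and from 1.11 to 1.39 in list 2. Without 9q33 and 17p13, left out after seeing the data, it was 1.13 and 1.08, and without 11q11 as well it was 0.906 in list 2, below 1. The median of the ratios of the clusters was 0.938 in list 2. Limited to peaks with a −log10 q of at least 2, no cluster held a peak, so the pooled ratio was 0 in both lists and 0 clusters were called higher. Under this limit a cluster is called lower whenever its flanks hold such a peak, and has no ratio otherwise. The flanks held 2 such peaks in list 1 and 3 in list 2, so the counts of lower clusters under it carry no information on the clusters. Keeping peak-free stretches and other clusters in the flanks gave 4 clusters called higher in list 2. The count of clusters called lower in list 1, reported as 0, was 2 with peaks above the median fold, 1 with a −log10 q of at least 2, 3 with base pairs in both lists, 1 with bounds moved out by 100 kb and 5 when list 1 kept only peaks at or above the smallest −log10 p found in list 2. The same count in list 2, reported as 2, was 1 with flanks of 1 Mb and 5 with peaks above the median fold. It was 3 with a −log10 q of at least 2, with base pairs in both lists, with weighting by fold and with bounds moved out by 100 kb. Of these alternatives, the share of windows called was computed for the limit on −log10 p alone, where 28.8% of windows were lower in list 1 and 18.4% higher. Counts under the other alternatives have no background beside them. With flanks of 5 Mb the ratio of 17p13 was 2.36 and 3.07, and that of 9q33 in list 2 was 3.23. The cause of these changes was not tested, except that fewer peaks enter under stricter limits. Windows of 0.5 Mb in place of 1 Mb were higher in 7.02% and lower in 16.8% of cases in list 1, and in 14.3% and 25.2% in list 2. No paired analysis was possible because the peak lists belong to no sample and no test was made. Depth is unknown, so a lack of peaks is not a lack of the mark.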
